A study of Homo sapiens with 4 samples.

Results

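The ATP-binding cassette (ABC) transporters examined here were the protein-coding genes whose symbol is ABC followed by a letter from A to G and a number, from ABCA1 to ABCG8. This rule found 45 of the 19951 protein-coding genes of the annotation used for names (GENCODE release 29), and they fell into 7 subfamilies. The rule used symbols alone and no measured value. Members of the superfamily that carry other symbols, TAP1, TAP2 and CFTR, were counted apart.

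ABC transporters are membrane proteins that bind and hydrolyse ATP in a pair of cytoplasmic nucleotide-binding domains and use the energy to move a substrate across the membrane. In hepatocytes, members of the family secrete bile salts, phospholipids, sterols and conjugated compounds into bile, load lipoproteins with cholesterol, and import fatty acids into peroxisomes. Several members export anticancer drugs and are known for multidrug resistance in tumour cells. The ABCE and ABCF proteins have the same ATP-binding domains but no membrane domain, and act on ribosomes.

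The study sequenced total RNA depleted of ribosomal RNA from HepG2 and Huh7 cells, established human liver cancer lines, with 4 libraries in all and 1 library in each group. Group A was untreated HepG2 cells and group C untreated Huh7 cells. Groups B (HepG2) and D (Huh7) received sonodynamic therapy (SDT), in which low-frequency ultrasound excites a sensitizer. The treatment combined targeted nanobubbles with lonidamine (LND), an inhibitor of tumour energy metabolism, and, by the study's methods, hematoporphyrin monomethyl ether (HMME), a porphyrin that acts as the sensitizer. No group with empty nanobubbles, ultrasound alone or either agent alone was among these 4, so the parts of the treatment cannot be told apart. The time of RNA collection after treatment was not given in the sources used here.

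The tables examined here hold the differentially expressed mRNAs as the authors called them in HepG2 (group B vs. A) and in Huh7 (group D vs. C), sorted under gene ontology (GO) terms and KEGG pathways. A gene is called listed when its identifier appears under any GO term of a comparison. The tables give neither a level nor a direction, so a listed gene may have been higher or lower after treatment. A gene that was not listed may have been unchanged, too low to call, or without a GO term. A listed gene may itself have been near the limit of detection, so listing does not show that a member was well expressed. With 1 library in each group there was no replicate error, no test was made, and a difference between HepG2 and Huh7 was not tested. Read depth was not given in the tables, so no interval was computed. As in any bulk sample, fewer cells expressing a gene and less RNA per cell cannot be told apart.

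Hepatocyte markers were looked up first, since a listed marker must have been detected in a library of that comparison. Of 6 markers, ALB (albumin), AFP (alpha-fetoprotein) and the liver transcription factor HNF4A were listed in both cell lines, and APOA1 and TTR were listed in Huh7 alone. SERPINA1 was listed in neither, which says nothing about its level.

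The upstream sequences of the genes that lead the results are given here because the members listed in both cell lines had start regions of very different base composition. RefSeq (GRCh38.p14) start regions were matched for 35 of the 45 members, and windows of 250 bases before the start are shown for the 4 shared members with a start at 1 position, ABCA6, ABCA13, ABCB10 and ABCC9. ABCB11 and ABCB6, listed in Huh7 alone, are added as a bile salt pump and a porphyrin transporter. Capitals mark a GC box (GGGCGG) or an antioxidant response core (TGACNNNGC), searched on both strands, and each run reads 5′ to 3′ on the strand of the gene.
ABCA6, chr17:69141896-69142145, minus strand: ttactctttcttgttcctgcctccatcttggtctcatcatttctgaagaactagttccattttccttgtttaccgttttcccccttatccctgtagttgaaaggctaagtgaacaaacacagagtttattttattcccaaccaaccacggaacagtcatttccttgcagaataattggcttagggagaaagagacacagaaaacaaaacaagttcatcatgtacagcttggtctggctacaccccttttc
ABCA13, chr7:48171208-48171457, plus strand: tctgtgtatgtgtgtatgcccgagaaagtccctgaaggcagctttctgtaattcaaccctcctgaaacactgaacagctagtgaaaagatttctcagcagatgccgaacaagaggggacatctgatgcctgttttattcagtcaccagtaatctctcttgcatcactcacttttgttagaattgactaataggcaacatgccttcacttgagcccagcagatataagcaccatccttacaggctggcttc
ABCB10, chr1:229558708-229558957, minus strand: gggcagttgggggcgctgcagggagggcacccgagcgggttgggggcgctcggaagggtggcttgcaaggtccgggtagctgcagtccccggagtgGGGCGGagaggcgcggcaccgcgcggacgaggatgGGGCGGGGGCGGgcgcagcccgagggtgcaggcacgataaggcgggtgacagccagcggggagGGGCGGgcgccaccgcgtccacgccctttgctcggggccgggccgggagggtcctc
ABCC9, chr12:21941427-21941676, minus strand: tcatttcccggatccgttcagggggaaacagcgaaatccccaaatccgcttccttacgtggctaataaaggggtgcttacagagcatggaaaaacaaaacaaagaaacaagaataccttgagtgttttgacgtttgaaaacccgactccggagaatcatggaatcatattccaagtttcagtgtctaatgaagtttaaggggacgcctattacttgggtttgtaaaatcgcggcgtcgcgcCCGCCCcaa
ABCB11, chr2:169031325-169031574, minus strand: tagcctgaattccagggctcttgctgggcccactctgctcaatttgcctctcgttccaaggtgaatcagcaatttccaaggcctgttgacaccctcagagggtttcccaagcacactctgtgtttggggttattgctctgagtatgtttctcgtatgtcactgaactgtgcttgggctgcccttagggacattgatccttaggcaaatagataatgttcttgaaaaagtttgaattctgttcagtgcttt
ABCB6, chr2:219218959-219219208, minus strand: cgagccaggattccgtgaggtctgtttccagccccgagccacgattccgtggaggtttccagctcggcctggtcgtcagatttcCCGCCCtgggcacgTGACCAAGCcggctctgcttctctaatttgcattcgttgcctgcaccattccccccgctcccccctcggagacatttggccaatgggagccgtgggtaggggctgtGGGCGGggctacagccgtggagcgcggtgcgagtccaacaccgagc
The window of ABCB10, a transporter of the inner mitochondrial membrane, was 77.2% GC with 29 CpG dinucleotides and 4 GC boxes. Those of ABCA6 and ABCA13 were 40.8% and 44.8% GC with 2 CpG dinucleotides each. The ABCC9 window lay between these in CpG number, with 15 at 46.0% GC and 1 GC box, and that of ABCB11 was 46.4% GC with 2. The ABCB6 window, at 64.4% GC, held 20 CpG dinucleotides, 2 GC boxes and 1 antioxidant response core. Genes listed in both cell lines thus started both in GC-rich and in AT-rich sequence.

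Over the promoters of all 14895 protein-coding genes matched, 63.2% held GGGCGG, 14.8% held TGACNNNGC, 13.4% held the nuclear receptor half-site AGGTCA and 11.6% held TATAAA on either strand. Among the 35 members the numbers were 21, 9, 2 and 6. A match is a run of letters and not a bound site. Fewer than 80% of the members had an entry, so no comparison of promoter composition between listed and unlisted members was made. Those without an entry included ABCA4, ABCA8, ABCB4, ABCB5, ABCC1, ABCC3, ABCC8 and ABCG1.

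In HepG2 cells, 12 of the 45 members (26.7%) were listed in group B vs. A, beside 4768 of all 19951 protein-coding genes (23.9%). In Huh7, 19 members (42.2%) were listed in group D vs. C, beside 4360 genes (21.9%). The share in HepG2 cells was thus near that of all genes, whereas in Huh7 it was higher. Huh7 cells had 7 more listed members than HepG2 cells, although their whole list was the shorter.

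In all, 8 members were listed in both cell lines, which is 17.8% of the family, where the share over all genes was 11.4%. They were ABCA6, ABCA8 and ABCA13 of the lipid-transporting ABCA subfamily, the sterol transporters ABCG1 and ABCG4, the mitochondrial ABCB10, the peroxisomal ABCD2, and ABCC9, a regulatory subunit of potassium channels. Their Ensembl identifiers in the tables are ENSG00000154262 (ABCA6), ENSG00000141338 (ABCA8), ENSG00000179869 (ABCA13), ENSG00000160179 (ABCG1), ENSG00000172350 (ABCG4), ENSG00000135776 (ABCB10), ENSG00000173208 (ABCD2) and ENSG00000069431 (ABCC9). These members made up 66.7% of the members listed in HepG2 cells and 42.1% of those listed in Huh7. Over all genes the shared part was 47.7% of the HepG2 list and 52.2% of the Huh7 list.

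In all, 4 members were listed in HepG2 cells alone, beside 12.5% of all genes, namely ABCA9, ABCB4, ABCC4 and ABCC12. Huh7 alone had 11 members, beside 10.4% of all genes, and these were ABCA4, ABCA5, ABCA10, ABCB1, ABCB5, ABCB6, ABCB11, ABCC6, ABCC8, ABCD3 and ABCG5. The other 22 members (48.9%) were listed in neither, beside 65.7% of all genes, and 23 members (51.1%) in at least 1 cell line, beside 34.3%. The listed members came from the ABCA, ABCB, ABCC, ABCD and ABCG subfamilies, and the plot of members by role shows where they lay.

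**Figure D1:**
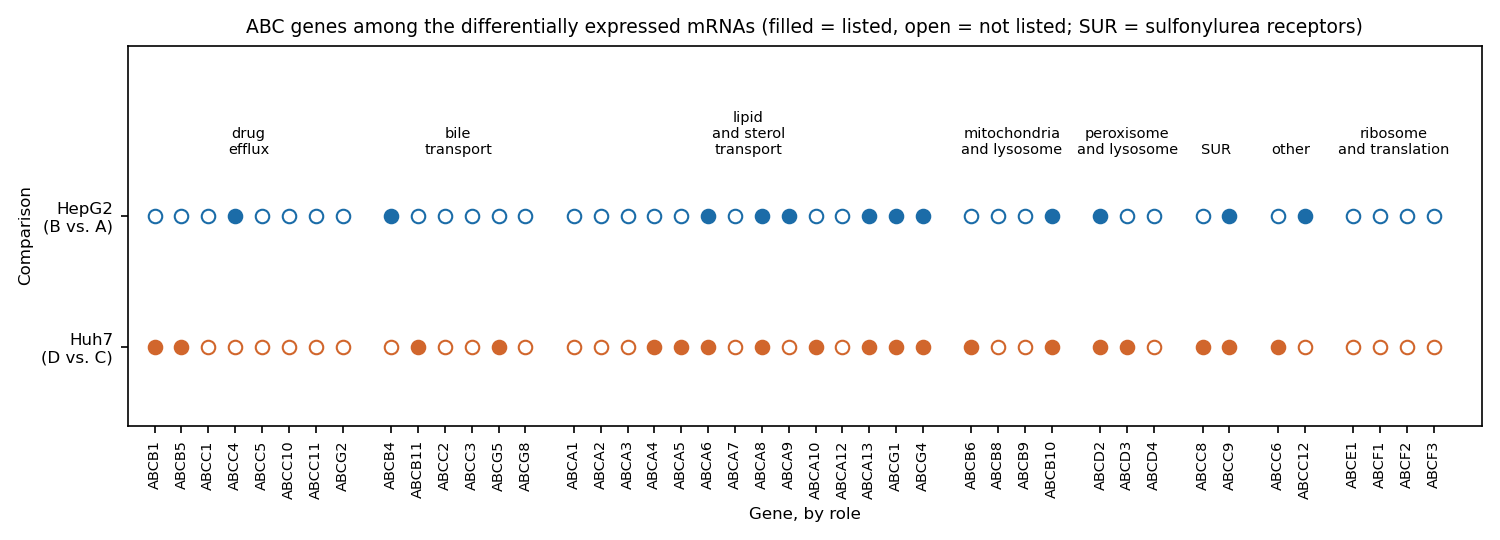
Each column is 1 ABC gene, for 43 of the 45, grouped by role along the horizontal axis, and each row is 1 comparison (HepG2, group B vs. A, and Huh7, group D vs. C). Filled circles are listed genes, 12 in HepG2 and 19 in Huh7, and open circles are genes not listed. The lipid and sterol group, the largest with 14 genes, holds 5 of the 8 genes filled in both rows. The ribosome and translation group, of 4 genes, holds none.

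The 14 members of lipid and sterol transport, the largest role group, held the most listed genes. Of them, 6 (42.9%) were listed in HepG2, 8 (57.1%) in Huh7 and 5 (35.7%) in both. Of all genes, 23.9%, 21.9% and 11.4% were so listed. The 5 neighbours on chromosome 17 described below supplied 3, 4 and 2 of these members. ABCG1, which exports cholesterol to high-density lipoprotein, and ABCG4, its close relative known from brain, were listed in both cell lines. They are the only genes of the GO term sterol-transporting ATPase activity, whose 2 background genes were thus listed in full in each comparison. ABCA6 and ABCA8, members of a cholesterol-responsive ABCA branch, and ABCA13, the longest of the ABC genes with a longest transcript of 17184 bases, were also listed in both.

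ABCA9 was listed in HepG2 alone. ABCA5, a lysosomal cholesterol transporter, ABCA10, and ABCA4, which clears retinoid conjugates in photoreceptors, were listed in Huh7 alone. ABCA1, which passes cholesterol and phospholipid to apolipoprotein A-I, was listed in neither. Nor were ABCA2 and ABCA7, known for lipid handling in brain, ABCA3, the surfactant lipid transporter of lung, and ABCA12, the ceramide transporter of skin.

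A run of 5 of these genes, ABCA8, ABCA9, ABCA6, ABCA10 and ABCA5, follows without interruption on the minus strand of chromosome 17, with no other protein-coding gene in between. All 5 were listed in at least 1 cell line, beside 34.3% of all genes. In HepG2 3 were listed (ABCA8, ABCA9, ABCA6), beside 23.9% of all genes. In Huh7 4 were listed (ABCA8, ABCA6, ABCA10, ABCA5), beside 21.9%, and 2 were listed in both, beside 11.4%. ABCA5 and ABCA10 have coding transcripts that overlap on the same strand, and 98.2% and 97.3% of the 75-base stretches in their transcripts were found in no other gene. Without these 5 neighbours, 9 of 40 members were listed in HepG2, 15 of 40 in Huh7 and 6 in both.

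Of the 8 drug exporters, 1 was listed in HepG2 and 2 in Huh7, and none in both. ABCC4, which exports cyclic nucleotides and nucleoside drugs, was listed in HepG2 alone. ABCB1, the P-glycoprotein of multidrug resistance, and ABCB5, a related exporter known from melanoma, were listed in Huh7 alone. The share of listed genes was 12.5% in HepG2 and 25% in Huh7, beside 23.9% and 21.9% of all genes. In a group of 8, 1 gene is 12.5%, so neither share can show a departure from all genes. The share of all genes listed in both, 11.4%, amounts to about 1 gene in a group of 8, so the lack of a shared exporter lies near the background.

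The other 5 were listed in neither cell line. They were ABCC1, an exporter of glutathione conjugates, ABCC5, ABCC10 and ABCC11 of the same subfamily, and ABCG2, which exports many drugs and also porphyrins. ABCB1 overlaps RUNDC3B on the opposite strand. The libraries were made with a strand-specific kit, but the strand setting of the counting was not given in the sources used here.

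The 6 members that carry bile constituents out of hepatocytes had 1 listed in HepG2 (16.7%, beside 23.9% of all genes) and 2 in Huh7 (33.3%, beside 21.9%). None was listed in both, beside 11.4% of all genes, a share that amounts to less than 1 gene in a group of 6. ABCB4, which moves phosphatidylcholine into bile, was listed in HepG2 alone. ABCB11, the bile salt export pump, and ABCG5, a subunit of the sterol transporter of bile and intestine, were listed in Huh7 alone. ABCC2 and ABCC3, which export conjugated bilirubin across the canalicular and the basolateral membrane, were listed in neither, and the same was found for ABCG8.

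ABCG5 and ABCG8 form a single transporter as a heterodimer and lie head to head on chromosome 2, yet the former was listed in Huh7 and the latter was not listed. The sequence between their RefSeq starts, which both genes share as upstream sequence, was 131 bases long and is shown as the shared start region of the pair. It was 60.3% GC with 5 CpG dinucleotides and held none of the 4 motifs searched.
ABCG5 to ABCG8, chr2:43838840-43838970, plus strand: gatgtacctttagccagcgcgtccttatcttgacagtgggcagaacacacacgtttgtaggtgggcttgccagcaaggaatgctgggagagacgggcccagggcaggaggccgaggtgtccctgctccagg
Transcripts of the pair overlap on opposite strands in the annotation. ABCB4 and ABCB1 are likewise neighbours, on chromosome 7, and here the former was listed in HepG2 and the latter in Huh7. In the pairs on chromosome 16, ABCC6 was listed in Huh7 and its neighbour ABCC1 in neither, and ABCC12 was listed in HepG2 and its neighbour ABCC11 in neither.

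Of 5 members of mitochondria and lysosomes, ABCB10, required for mitochondrial heme synthesis, was listed in both cell lines, and ABCB6, which transports porphyrins, in Huh7 alone. The listing of ABCB6 is uncertain because only 54.8% of its 75-base stretches were unique to it, and it overlaps the annotated gene AC068946.2 on the same strand. ABCB8, a transporter of the inner mitochondrial membrane, and ABCB9, a lysosomal peptide transporter, were listed in neither.

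The ABCD subfamily serves peroxisomes and lysosomes, and ABCD2, which imports very long-chain fatty acids into peroxisomes, was listed in both cell lines. ABCD3, the importer of branched-chain fatty acids and bile acid precursors, was listed in Huh7 alone. ABCD4, which works in the lysosomal release of vitamin B12, was listed in neither.

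Both sulfonylurea receptors, the regulatory subunits of ATP-sensitive potassium channels, were listed in Huh7, and ABCC9 was also listed in HepG2, while ABCC8 was not. ABCC6, mutated in pseudoxanthoma elasticum and expressed in liver, was listed in Huh7 alone, and 84.8% of its stretches were unique to it, with the pseudogenes ABCC6P1 and ABCC6P2 as near-identical copies. ABCC12, whose substrate is not known, was listed in HepG2 alone. ABCE1, the ribosome recycling factor, and ABCF1, ABCF2 and ABCF3, which act in translation, were listed in neither cell line. ABCF2, with 55.4% of its stretches unique, overlaps the annotated gene AC021097.2.

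By subfamily, ABCA had 4 of 12 members listed in HepG2 (33.3%) and 6 in Huh7 (50%), and ABCB had 2 and 5 of 9 (22.2% and 55.6%). ABCC had 3 of 11 in each (27.3%), ABCD 1 and 2 of 4 (25% and 50%), and ABCG 2 and 3 of 5 (40% and 60%). Of all genes, 23.9% were listed in HepG2 and 21.9% in Huh7, so the ABCB, ABCC and ABCD shares in HepG2 lay near the background. In ABCB, ABCB1, ABCB5, ABCB6 and ABCB11 were listed in Huh7 alone, beside 10.4% of all genes, and ABCB4 in HepG2 alone, beside 12.5%. Without ABCB6, whose listing is uncertain, the numbers were 2 and 4, against 4 and 6 in ABCA. Groups of this size give coarse shares, since 1 gene of 5 is 20%.

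Other families of transport proteins were counted in the same way. Of 386 solute carriers, which move solutes without hydrolysing ATP, 115 (29.8%) were listed in HepG2 and 129 (33.4%) in Huh7. The 36 P-type ATPases, the ion and lipid pumps that form a phosphorylated intermediate, had 8 (22.2%) and 10 (27.8%), and the 27 subunits of the V-type proton pump had 10 (37%) and 6 (22.2%). In Huh7 the ABC share of 42.2% was the highest of these 4 families, and in HepG2 the V-type subunits and the solute carriers had higher shares. Listed in both cell lines were 17.6% of the solute carriers, 13.9% of the P-type ATPases and 22.2% of the V-type subunits. The ABC share of 17.8% was thus not particular to this family. The shared part of the HepG2 list was 59.1%, 62.5% and 60% in these families, beside 66.7% for ABC members. For the Huh7 list it was 52.7%, 50% and 100%, beside 42.1%.

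**Figure D2:**
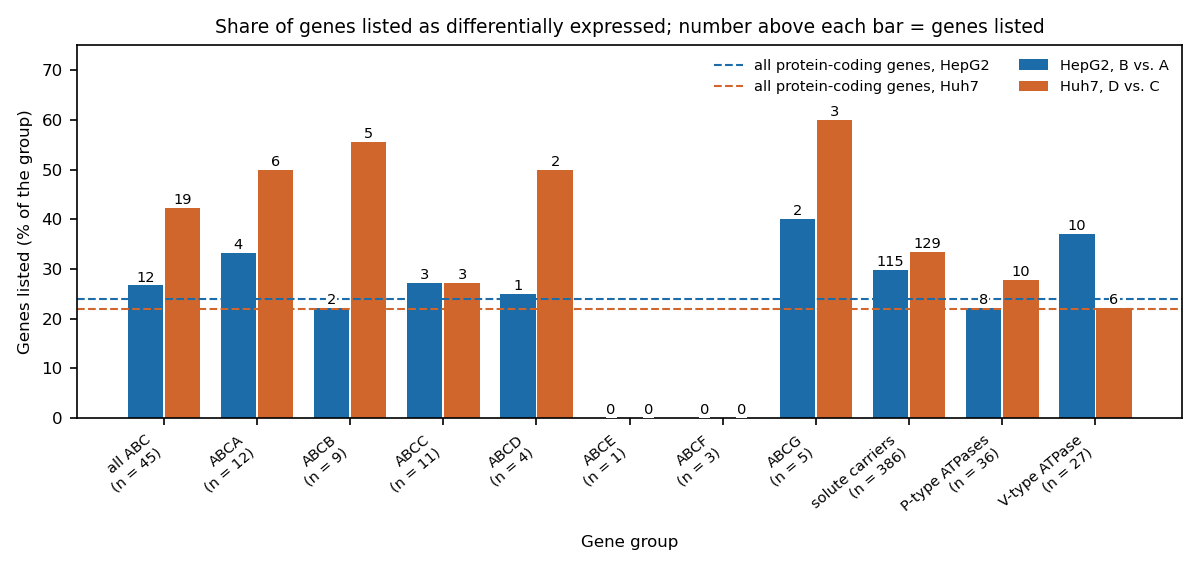
Bars give the percentage of each gene group (horizontal axis, with its number of genes) that was listed, blue for HepG2 (group B vs. A) and orange for Huh7 (group D vs. C), with the number of listed genes above each bar and dashed lines at 23.9% and 21.9% for all protein-coding genes. The bars for all ABC genes stand at 26.7% and 42.2%, and there are no error bars because each group is 1 library.

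The GO term ATPase activity coupled to transmembrane movement of substances held all listed members, 12 of its 33 listed genes in HepG2 and 19 of 36 in Huh7, out of 145 background genes. The whole term was listed at 22.8% and 24.8%, near the shares of all genes, and its other listed genes numbered 21 in HepG2 and 17 in Huh7. Drug transport (53 background genes) held 11 listed genes in HepG2, of which ABCA8 and ABCB4 were ABC members, and 16 in Huh7, with ABCA8, ABCB1, ABCB5 and ABCG5. In xenobiotic-transporting ATPase activity, of 7 background genes, the listed genes were ABCA8 and ABCB4 in HepG2 and ABCA8, ABCB1 and ABCB5 in Huh7.

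In the terms for lipid transport, cholesterol efflux and phospholipid transport, most of the listed genes were not ABC members. Lipid transport had 93 of 350 genes listed in HepG2, 9 of them members, and 94 in Huh7, 12 of them members. Cholesterol efflux had 10 of 63 listed in HepG2, with ABCG1 and ABCG4, and 14 in Huh7, with ABCA5 and ABCG5 in addition. Phospholipid transport held ABCB4 and ABCG1 among 17 of 68 in HepG2 and ABCA4, ABCB1 and ABCG1 among 18 in Huh7.

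The apical plasma membrane, the side of a hepatocyte that faces bile, had 102 of 329 genes listed in HepG2 and 99 in Huh7. Its members were ABCB4 in the former and ABCB1, ABCC6 and ABCG5 in the latter. With 1 member listed in HepG2, its absence from the 55 genes of the term listed in both rests on ABCB4 alone. Bile acid and bile salt transport had 10 of 30 genes listed in HepG2, none an ABC member, and 12 in Huh7, with ABCB11. The peroxisomal membrane had ABCD2 among 11 of 64 in HepG2, and ABCD2 and ABCD3 among 15 in Huh7.

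Of 82 GO terms on drug, bile, sterol, lipid, peroxisomal or apical functions that held a member in either table, 44 held more members in Huh7, 8 more in HepG2 and 30 the same number. These terms overlap and share genes, and therefore repeat the difference in member number rather than add to it. A listed member stood under 50 to 318 terms with a median of 123. ABCC8 had 318 and ABCG1 286, while ABCC12 had 50, and each of the 8 shared members stood under the same number of terms in both tables.

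The KEGG pathway ABC transporters has 44 background genes, the number of members without ABCE and ABCF plus TAP1, TAP2 and CFTR. In HepG2 14 (31.8%) were listed, the 12 members with CFTR, a chloride channel, and TAP2, a subunit of the peptide transporter of antigen presentation. In Huh7 19 (43.2%) were listed, all of them members. Ordered by share listed among 274 pathways of at least 10 background genes, it stood at place 60 in HepG2 and at place 16 in Huh7, where the median pathway had 25.9% and 26.1%.

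Bile secretion had 22 of 72 genes (30.6%) listed in HepG2, with ABCB4 and ABCC4, and 29 (40.3%) in Huh7, with ABCB1, ABCB11 and ABCG5. The pathway shared 12 listed genes between the cell lines, and its few listed ABC members, 2 and 3, were not among them. Over all genes, 47.7% of the HepG2 list was shared. With 2 members listed in HepG2, so small a number cannot show a departure from that share. ABCC8 stood in Insulin secretion and Type II diabetes mellitus and ABCG5 in Fat digestion and absorption, each in Huh7 alone. Peroxisome held ABCD2 among 23 of 81 in HepG2, and ABCD2 and ABCD3 among 22 in Huh7. Antigen processing and presentation held no member, with 19 and 21 of 79 genes listed.

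**Figure D3:**
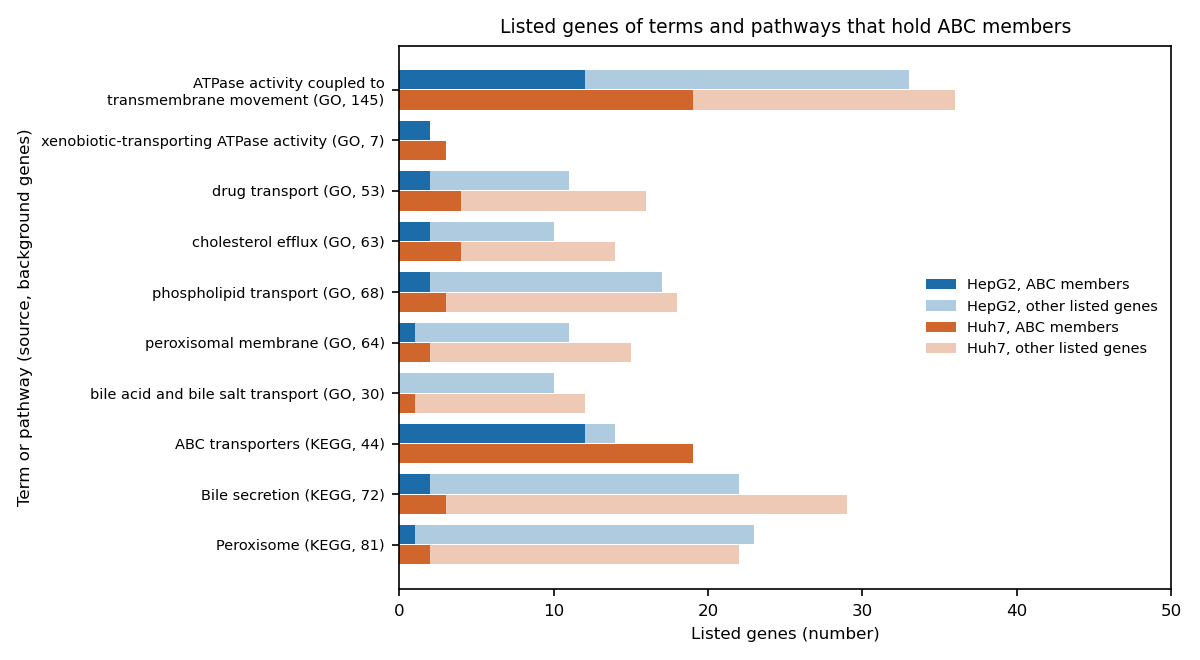
Horizontal bars give the number of listed genes in 7 GO terms and 3 KEGG pathways (vertical axis, with the number of background genes), dark for ABC members and pale for other genes, blue for HepG2 and orange for Huh7. Members filled the KEGG pathway ABC transporters, 12 of 14 and 19 of 19 listed genes, and were a small part of Bile secretion, 2 of 22 and 3 of 29.

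Genes that act with ABC transporters were taken from lists. Of 21 transcription factors and cofactors known to regulate ABC genes, 4 (19%) were listed in HepG2 and 6 (28.6%) in Huh7. These shares lay near those of all genes, 23.9% and 21.9%. NR1H4, the bile acid receptor that activates ABCB11, and HNF4A were listed in both. PPARA was listed in HepG2 alone, and NR1I3, NR0B2, NR5A2 and PPARD in Huh7 alone. NR1I2, the xenobiotic receptor that activates ABCB1, NR1H2 and NR1H3, the oxysterol receptors that activate ABCG1, and NFE2L2 with its inhibitor KEAP1 were among the 13 listed in neither.

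Bile acid synthesis and uptake had 5 of 14 genes (35.7%) listed in each cell line, beside 23.9% and 21.9% of all genes. Of the 14, 3 (21.4%) were listed in both, beside 11.4% of all genes. The shared genes were the uptake carriers SLC10A1 and SLCO2B1 and the efflux subunit SLC51B. CYP7A1, the rate-limiting enzyme of bile acid synthesis, and SLC10A2 were listed in HepG2 alone, and CYP7B1 in Huh7 alone. The bile salt uptake carrier was thus listed in both cell lines and the export pump ABCB11 in Huh7.

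Lipid acceptors and partners had 3 of 9 genes listed in HepG2 (APOE and NPC1L1 among them) and 5 in Huh7 (APOA1, APOA2, LCAT, SCARB1 and NPC1), or 33.3% and 55.6% beside 23.9% and 21.9% of all genes. None was listed in both, beside 11.4% of all genes, which is about 1 gene of 9. ABCG1 was listed in both cell lines, while the high-density lipoprotein genes APOA1, APOA2, LCAT and SCARB1 were listed in Huh7. Of 13 binding partners and anchors, MMACHC, which receives the vitamin B12 released with ABCD4, was listed in both cell lines. PDZK1, a scaffold of apical transporters, and KCNJ8, the channel pore that pairs with ABCC9, were listed in Huh7 alone. The other 10 (76.9%) were listed in neither, beside 65.7% of all genes.

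Listing can move with transcript length, so the members were set beside genes of like length. The longest transcripts of the members ran from 2844 to 17184 bases with a median of 5806, against 3153 for all protein-coding genes. Of all 11042 protein-coding genes in that length range, 25.5% were listed in HepG2 and 23% in Huh7. Among the 4989 longest genes, of 4938 bases or more, these shares were 26.5% and 23.3%, whereas 8 of the 27 members there (29.6%) and 12 (44.4%) were listed. Within the family, median length was 6030.5 bases for shared members and 5402 for members listed in neither.

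The listed members had transcripts of lower median GC content than the unlisted ones. The GC content of the longest transcript had a median of 41.0% in the 8 shared members, 43.7% in those of HepG2 alone, 44.4% in those of Huh7 alone and 52.6% in the 22 listed in neither. Over all genes the corresponding medians were 50.1%, 49.2%, 50.1% and 48.8%. Of the 21 members below the median of all genes (49.1%), 15 (71.4%) were listed in at least 1 cell line, and of the 24 at or above it, 8 (33.3%). Over all genes these shares were 33.2% and 35.6%.

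The ranges overlapped, from 34.3% to 59.9% in shared members and from 38.4% to 65.8% in unlisted ones. ABCD2 at 34.3%, ABCC9 at 38.5% and ABCA6 at 38.6% were the shared members of lowest GC content, and ABCG4 at 59.9% was the highest. ABCE1, at 38.4%, was the unlisted member of lowest GC content, and ABCA7, at 64.7%, was among the highest. The 5 neighbours on chromosome 17 were all below the median of all genes, from 33.1% (ABCA5) to 41.0% (ABCA8). The part of base composition in the listing was not tested.

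**Figure D4:**
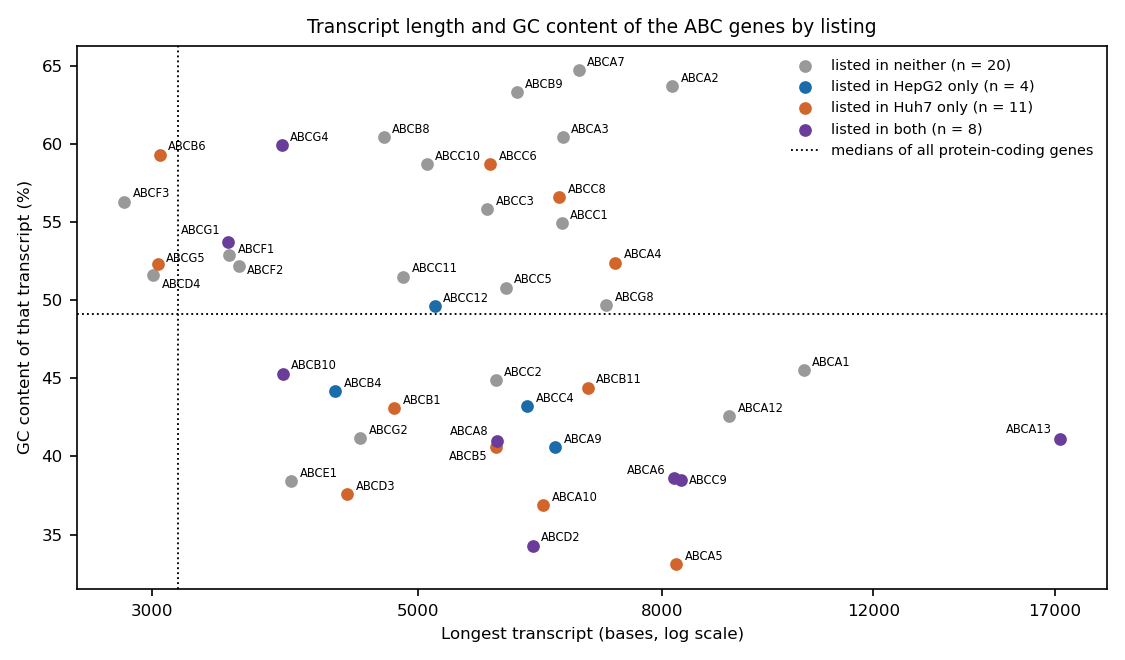
Each point is 1 ABC gene, for 43 of the 45, placed by the length of its longest transcript in bases (horizontal, log scale) and the GC content of that transcript in percent (vertical), and coloured by listing. Dotted lines mark the medians of all protein-coding genes, 3153 bases and 49.1%; 15 of the 20 points below the horizontal line are coloured as listed, against 8 of the 23 at or above it.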

How the data were processed

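Total RNA was depleted of ribosomal RNA and made into strand-specific libraries, 1 per group (4 libraries), and groups were taken from the labels. Per the submitters' processing notes the tools were Bowtie2 (2.2.8), HISAT2, StringTie (1.3.1) and Cuffdiff (2.1.1), and the build and the annotation used are not given in the sources used here. The authors chose the differentially expressed mRNAs by adjusted p-value (the methods name Cuffdiff for FPKM values and calls, the results text another tool), and tested GO terms with GOseq, which allows for gene length. KOBAS was used for KEGG pathways.

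The 4 tables used here were deposited with the number of listed and background genes of each term, the gene identifiers, and the enrichment p-values of the authors, which were not used. The deposited numbers count genes and not reads, so they do not give the depth of a library. The paper's text states a total of clean reads, not divided by library. The GO lists held 4783 and 4369 genes, of which 15 and 9 were not protein-coding genes of the annotation, and the KEGG lists 1693 and 1636. The lncRNA and circRNA tables were not analysed here.

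Members, roles and partner lists were chosen with earlier results of these data known. All but a few members, which are not reported here, were named, and terms were named by fixed keywords, with some further terms named after their values were seen. Identifiers were matched to GENCODE release 29 for symbol, gene type, order along the chromosome, length and GC content. Uniqueness was the share of 75-base stretches of the transcripts of a gene found in no transcript of another gene. Start regions came from RefSeq (GRCh38.p14). Python 3.11.15 was used, and the counting was tested on simulated lists. Alternatives were other rows or tables for the listing, other member sets and other backgrounds.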

Additional observations from a re-analysis of the deposited data

How the results depend on the processing

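Under the alternatives tried, 35 values in all, each stayed within 1.5 times the value reported. All of them re-read the same calls of the authors, so they do not show how stable the calls are. The KEGG table alone, molecular function or biological process rows alone, and GO terms of at most 200 background genes gave the same listing. It was 12 members in HepG2, 19 in Huh7 and 8 in both. All listed members stand in the same molecular function term of 145 background genes and in the KEGG pathway ABC transporters. Listing by KEGG, by molecular function or by the smaller terms could thus not differ. With TAP1, TAP2 and CFTR the numbers were 14, 19 and 8. Further settings were chosen after seeing the data. Without the 3 members under 90% unique (ABCB6, ABCC6 and ABCF2) they were 12, 17 and 8, and without the 5 neighbours on chromosome 17 they were 9, 15 and 6. The share of all genes ranged from 21.6% to 25.5% in HepG2 and from 19.7% to 23% in Huh7 over the other backgrounds. Adding ABCC2 and ABCC3 to the drug exporters left 1 and 2 listed, which could not change because both genes were listed in neither cell line. No paired analysis was possible because each group has 1 library and no test was made. For the same reason no library could be left out, and the calls of the authors could not be remade from these tables.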
